A study of Mus musculus with 8 samples.

Results

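Vomeronasal receptor pseudogenes are disabled copies of the genes for V1R and V2R receptors, the G protein-coupled receptors with which sensory neurons of the mouse vomeronasal organ detect pheromones. They were taken as every row of the deposited expression table whose symbol starts with Vmn1r-ps or Vmn2r-ps, which gave 62 of 27532 genes, 20 in the V1R family and 42 in the V2R family. The table's biotype column called 60 of them a kind of pseudogene and 2, Vmn2r-ps130 and Vmn2r-ps159, protein coding. Their intact families, with symbols of Vmn1r or Vmn2r followed by a number alone, held 207 and 124 genes.

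V1R receptors are made by the apical neurons of the organ, which signal through the G protein subunit encoded by Gnai2, and V2R receptors by the basal neurons, which use the one encoded by Gnao1. A mature neuron transcribes a very small number of receptor genes out of the family and keeps the rest silent. Receptor genes sit in tandem clusters that grew by duplication, and pseudogenes lie among the intact genes of the same cluster, often with nearly the same sequence. Tex15, known from male germ cells, acts there in the piRNA-directed DNA methylation of transposons.

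RNA of the whole vomeronasal organ of 8 adult mice was sequenced, 4 labelled heterozygous for Tex15 (HET) and 4 labelled knockout (KO), so every control carried 1 altered allele. HET library 1 came from a male of 11.4 weeks, HET library 2 from a female of 14.6 weeks, and HET libraries 3 and 4 from females of 11.9 weeks. KO library 1 came from a female of 11.9 weeks, KO libraries 2 and 3 from males of 11.9 weeks and KO library 4 from a male of 12.1 weeks. The labels gave no strain and no description of the allele, wild-type animals were not analysed here, and the comparison asks how receptor transcription differs when Tex15 is lost. Age, sex and animal series were unevenly spread: HET libraries 1 and 2 came from animals with lower numbers than the other 6, which were all numbered in the 7100s, and no KO animal had such a lower number. The code that ends each library title was shared by HET libraries 3 and 4 and KO libraries 1 to 3. HET library 1, HET library 2 and KO library 4 each had another code, and the labels do not say what it means. The libraries held 17884133 to 26415816 reads, as recovered from the steps between low values. Tex15 itself was at 2.72, 2.29, 2.81 and 2.27 TPM (transcript abundance per gene length, scaled to a common sum in each library) in HET libraries 1 to 4 and at 0.87, 1.23, 1.12 and 1.14 TPM in KO libraries 1 to 4. The groups did not overlap, and the log2 change in TPM as deposited was −1.03 (SE 0.38, limma adjusted p = 0.794). Relative to the median gene it was −1.22 (adjusted p = 0.359). On other genes 3 libraries stood apart. HET library 1 had 66.6 TPM of Omp, a marker of mature sensory neurons, against 571 to 943 TPM in the other 7. Its Gnao1 and Gnai2, at 17.3 and 175 TPM, were above those of HET library 2, at 11.5 and 114 TPM. KO library 1 listed 2988 genes at 0 against 1287 to 1808. HET library 2 had the highest summed TPM of supporting cell markers (3752 against 1288 to 2055), erythrocyte markers (20894 against 3894 to 14310) and olfactory neuron markers (60.5 against 19.3 to 38.1). The basal neuron markers (Gnao1, Tfap2e, Robo2 and B2m) summed to 1515 to 4061 TPM in HET and 1628 to 3124 TPM in KO libraries. Gnao1 alone was at 11.5 to 30.7 TPM in HET and 16.8 to 24.2 TPM in KO libraries, so these sums come mostly from other genes of that list. Of the 28 listed genes of the vomeronasal signalling and maturation list limma called 0, with 2 at an unadjusted p under 0.05 and 0 called by limma-voom on recovered reads.

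What disables a member can be read by aligning it with its most similar intact receptor, and the following pairs are shown because each member changed with genotype and its closest intact relative lies on the same chromosome. Sequences run 5′ to 3′ on the gene's own strand in the GENCODE M21 transcripts (build GRCm38). In each pair the first line is the pseudogene and the second the relative. Vmn2r-ps42 (chr7:8954409-8954444, minus strand, inside 1 exon) was 99.9% identical to Vmn2r42 over aligned bases but lacked 50 bases of the coding sequence from codon 716 on, given in capitals in the relative.
Vmn2r-ps42: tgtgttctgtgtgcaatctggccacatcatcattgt
Vmn2r42: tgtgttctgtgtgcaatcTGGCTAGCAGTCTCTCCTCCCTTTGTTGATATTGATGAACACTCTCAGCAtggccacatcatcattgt
Vmn2r-ps36 (chr7:7438133-7438169, minus strand, inside 1 exon) was 99.3% identical to Vmn2r40 and carried 1 extra base in a run of A at codon 121, in capitals.
Vmn2r-ps36: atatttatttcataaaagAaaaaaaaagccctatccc
Vmn2r40: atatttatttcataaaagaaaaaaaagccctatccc
Vmn2r-ps129 (chr17:23008446-23008484, plus strand, inside 1 exon) was 96.9% identical to Vmn2r113 and carried a stop codon at codon 689 of the relative's 856, with that codon in capitals in both.
Vmn2r-ps129: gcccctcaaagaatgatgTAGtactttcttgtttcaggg
Vmn2r113: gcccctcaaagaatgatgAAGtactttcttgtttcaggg
Vmn2r-ps123 (chr17:19873474-19873510, plus strand, inside 1 exon) was 90.6% identical to Vmn2r95 and carried 1 extra base at codon 566, in capitals.
Vmn2r-ps123: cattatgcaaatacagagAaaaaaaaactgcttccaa
Vmn2r95: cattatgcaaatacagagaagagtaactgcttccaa
Vmn1r-ps14 (chr6:58049342-58049378, minus strand, inside 1 exon) was 94.3% identical to Vmn1r31 and carried 1 extra base at codon 163 of 303, in capitals.
Vmn1r-ps14: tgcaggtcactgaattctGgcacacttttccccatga
Vmn1r31: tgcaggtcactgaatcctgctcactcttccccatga
Vmn2r-ps130, which the deposited table calls protein coding, had no stop codon and no frame shift against Vmn2r113 and an open reading frame of 855 codons.

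Of the pseudogenes abundant enough to test, 8 of 20 in the V2R family were called lower in KO libraries and 1 higher, and 1 of 15 in the V1R family was called higher. Fold changes are on the scale of log2(TPM + 0.5) and relative to the median tested gene, which was 0.19 higher in KO libraries as deposited. The p-values, in contrast, test the change as deposited, so a printed fold change lies 0.19 below the one tested. When the change relative to the median gene was tested instead, an alternative added after the data were seen, limma called 11 V2R pseudogenes lower (0.483% of all genes) and 1 higher (0.197%), and no V1R pseudogene, since Vmn1r-ps14 no longer passed (adjusted p = 0.062). The other 9 calls remained, and Vmn2r-ps45, Vmn2r-ps49 and Vmn2r-ps82 were added. Of the 42 V2R pseudogenes, 20 had a mean of at least 0.5 TPM and were tested, and 22 fell below that filter. Among the 20, limma called 8 lower (0.374% of all 20305 tested genes were) and 1 higher (0.212% of all genes). The median of the 20 was −1.92, with 18 below the median gene. With no filter, over all 42 listed, the median was −0.57. In the intact V2R family 37 of 107 tested genes were called lower and 6 higher, with a median of −1.51. Tested relative to the median gene, 44 of these 107 were lower and 6 higher. The shares called were 45.0% of the pseudogenes and 40.2% of the intact genes, against 0.586% of all genes tested, and a difference between pseudogenes and intact genes was not tested.

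Of the 20 V1R pseudogenes, 15 were tested. Limma called 1 higher and 0 lower. At an unadjusted p under 0.05, 3 were higher (1.64% of all genes) and 3 lower (1.46%). When tested relative to the median gene, 2 were higher (1.03% of all genes) and 3 lower (2.07%), and Vmn1r-ps126 no longer passed (unadjusted p = 0.0975). Limma-voom called 0 of the 15, against 0.534% of the 20237 genes it tested. Their median was −0.72, with 10 below the median gene, and −0.46 with no filter over all 20 listed. It was −1.10 without HET library 1 and −0.34 without KO library 1, with sex in the model. The intact V1R family had 9 genes called lower and 1 higher among 143 tested, a median of −0.92, and a share called of 6.99% against 6.67% of its pseudogenes. Tested relative to the median gene, 15 were lower and 1 higher. Limma-voom called 18 of these 143 intact genes and 57 of the 107 intact V2R genes. Of the 20 V2R pseudogenes it called 9 lower (0.474% of all genes) and 1 higher (0.0593%). The recovered reads were not whole, and were rounded, for 8 of the 15 V1R pseudogenes, 55 of the 143 intact V1R genes and 74 of the 107 intact V2R genes, and for 0 of the 20 V2R pseudogenes. The 563 listed genes of other families with -ps in their symbol gave a median of −0.04 over 415 tested, with 1 called. Library by library, the groups did not overlap for 15 of 20 V2R pseudogenes (14 with KO below, 1 above) and for 5 of 15 V1R pseudogenes (3 below, 2 above), against 1.4% of all tested genes.

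**Figure D1:**
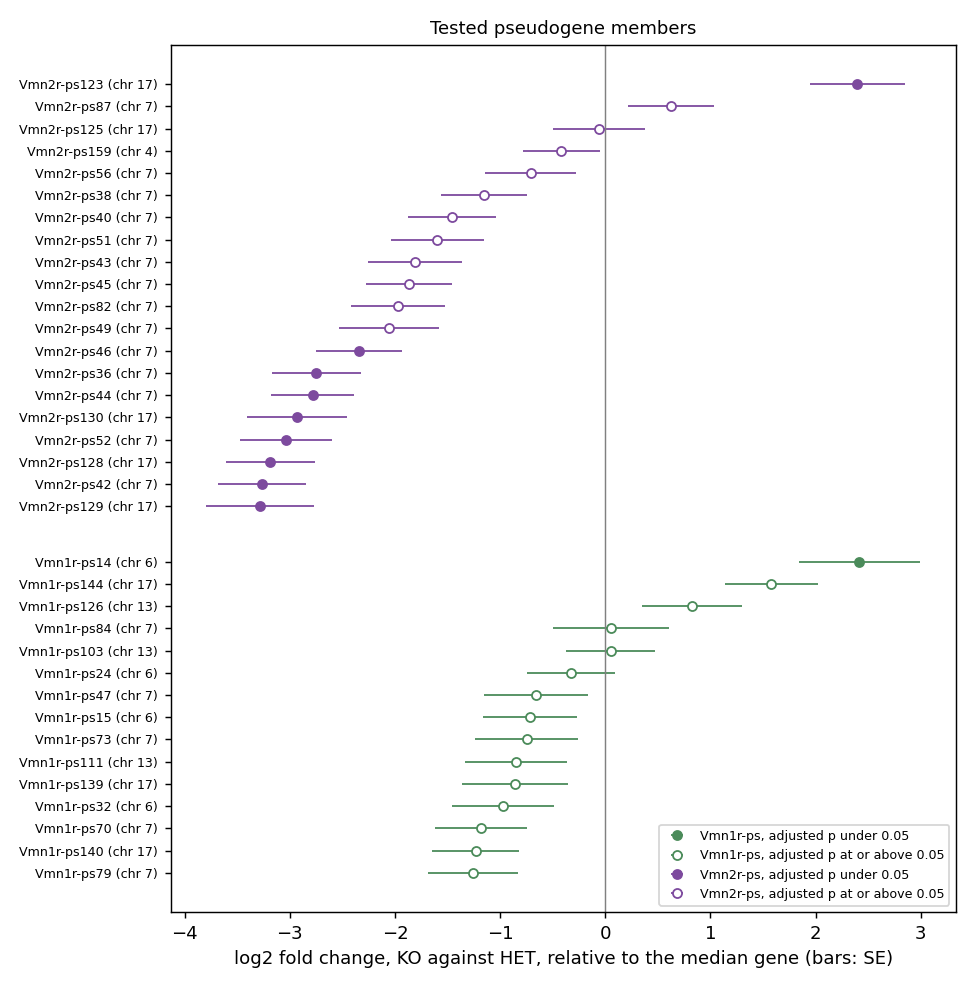
Log2 fold change of KO against HET for each of the 35 tested pseudogenes, relative to the median tested gene (x axis) with the standard error of the fit as bars; filled points passed an adjusted p of 0.05 for the change as deposited. In the upper block, V2R pseudogenes run from −3.28 to 2.39 with 9 filled, and in the lower block V1R pseudogenes run from −1.26 to 2.42 with 1 filled.

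The sex imbalance sets which libraries weigh most: with sex in the model, HET library 1 and KO library 1 carry a weight of 0.5 each and the other libraries 0.167 each. Leaving out either of these with the sex term kept left only 1 library of a genotype with weight, and 5 of the 10 called members remained called in each case. With genotype as the only term, all 10 remained called without HET library 1, among 10 called, and without KO library 1, among 12. Without HET library 2, which had the lowest level of most V2R pseudogenes among the controls and the high marker sums given above, all 10 remained among 15 called with sex in the model and among 16 with genotype as the only term. Within females the medians were −1.83 for V2R and −1.10 for V1R pseudogenes, within males −1.97 and −0.34, and within the 7100s animals −1.75 and −0.89. With 1 HET male and 1 KO female, HET library 1 and KO library 1, each within-sex value has a single library on 1 side. In a test with that limit of whether the genotype effect differed between the sexes in 35 members, limma called 0 (lowest adjusted p 0.684), and 1, Vmn1r-ps84, had an unadjusted p under 0.05.

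The largest group of lower members was a run of 14 V2R pseudogenes in the cluster at chr7:7417668-9918863, where no neighbouring pair lies more than 2 Mb apart. Of the 14, 11 were tested, 5 were called lower (0.374% of all tested genes were), and all 11 were below the median gene, with a median of −2.06. Vmn2r-ps38, ps40, ps45, ps46 and ps49 had KO means below 0.5 TPM and passed the filter only through their HET levels. In 12 of the 14 every KO library was below every HET library, against 0.926% of all tested genes. The 12 include Vmn2r-ps41 and Vmn2r-ps47, which were below the filter. The run's summed level was 127, 71.8, 217 and 143 TPM in HET libraries 1 to 4 and 13.5, 20.5, 20.98 and 29.2 TPM in KO libraries 1 to 4. All 4 KO sums lay below the lowest HET sum, and the run's share of all V2R pseudogene TPM went from 56.6% ± 2.30 (SD, n = 4) to 19.4% ± 2.96.

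Because the members of this run are near-identical to intact genes, with 4.84% to 67.2% of 100-base windows unique among the tested ones, reads of a member and of its relatives cannot be told apart with certainty. Vmn2r-ps42 (ENSMUSG00000092611, chr7:8953109-8969976, minus strand), which lacks the 50 bases shown above, was the most abundant member of this run. It was at 55.8, 26.8, 91.5 and 59.9 TPM in HET libraries 1 to 4 and at 4.47, 6.29, 7.91 and 10.4 TPM in KO libraries 1 to 4. The highest KO library was below the lowest HET library. The mean fell from 58.5 ± 26.5 TPM (SD, n = 4) to 7.28 ± 2.53 TPM, an 8.04-fold difference, and the log2 fold change was −3.27 (SE 0.42, limma adjusted p = 0.00043). Divided by Gnao1 of the same library, its level was 2.32 to 3.22 in HET and 0.267 to 0.431 in KO libraries. Its intact relative Vmn2r42, which encodes a V2R receptor, was at 20.05 ± 8.87 TPM in HET and 2.45 ± 0.788 TPM in KO libraries, with a log2 fold change of −3.07 (adjusted p = 0.0012, and 4.5e-07 to 0.0469 over the alternatives).

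Vmn2r-ps44 (ENSMUSG00000096707, chr7:8801136-8825685) was at 19.9, 13.4, 31.3 and 20.5 TPM in HET and at 2.66, 3.60, 2.73 and 3.5 TPM in KO libraries 1 to 4. The KO libraries differed little among themselves and all lay below the controls, with a log2 fold change of −2.78 (SE 0.39, adjusted p = 0.0013). Vmn2r-ps36 (ENSMUSG00000090849, chr7:7417668-7441299), with the extra base in its run of A, was at 20.8, 13.2, 36.6 and 23.2 TPM in HET and 2.22, 4.07, 4.19 and 6.12 TPM in KO libraries, a log2 fold change of −2.75 (SE 0.42, adjusted p = 0.0026). Vmn2r-ps52 (ENSMUSG00000093681, chr7:9918252-9918863), a fragment of 612 bases, was at 11.4, 8.76, 24.6 and 19.8 TPM in HET and 1.01, 1.91, 2.15 and 2.15 TPM in KO libraries. Its start coordinate is 9.37 kb from that of the intact Vmn2r48. No KO value reached a HET value in these members, and Vmn2r-ps52 fell by 3.03 on the log2 scale (SE 0.44, adjusted p = 0.0015) beside Vmn2r48, which fell by 2.75 (adjusted p = 0.0015, and 2.8e-06 to 0.113 over the alternatives, the highest without KO library 1). Vmn2r-ps46 (ENSMUSG00000092441, chr7:8399201-8422775) was lower in level, at 2.94, 1.42, 3.88 and 2.55 TPM in HET and 0.162, 0.261, 0.184 and 0.404 TPM in KO libraries, and fell by 2.34 (SE 0.41, adjusted p = 0.011; −3.78 with limma-voom). The 6 tested members of the run that did not pass the threshold had fold changes of −2.06 to −1.15, and 5 of them had no overlap between the groups. Among these 6, Vmn2r-ps45 and Vmn2r-ps49 passed when tested relative to the median gene (adjusted p = 0.0338 and 0.0499). With sex in the model and without KO library 1, the adjusted p was 0.0519 for Vmn2r-ps44, 0.216 for Vmn2r-ps36, 0.148 for Vmn2r-ps52 and 0.174 for Vmn2r-ps46, and without HET library 1 it was 0.198 for Vmn2r-ps46. Vmn2r-ps43 was the most abundant of the members that did not pass, at 5.65 ± 2.47 TPM in HET and 1.77 ± 0.695 TPM in KO libraries (−1.81, adjusted p = 0.179).

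**Figure D2:**
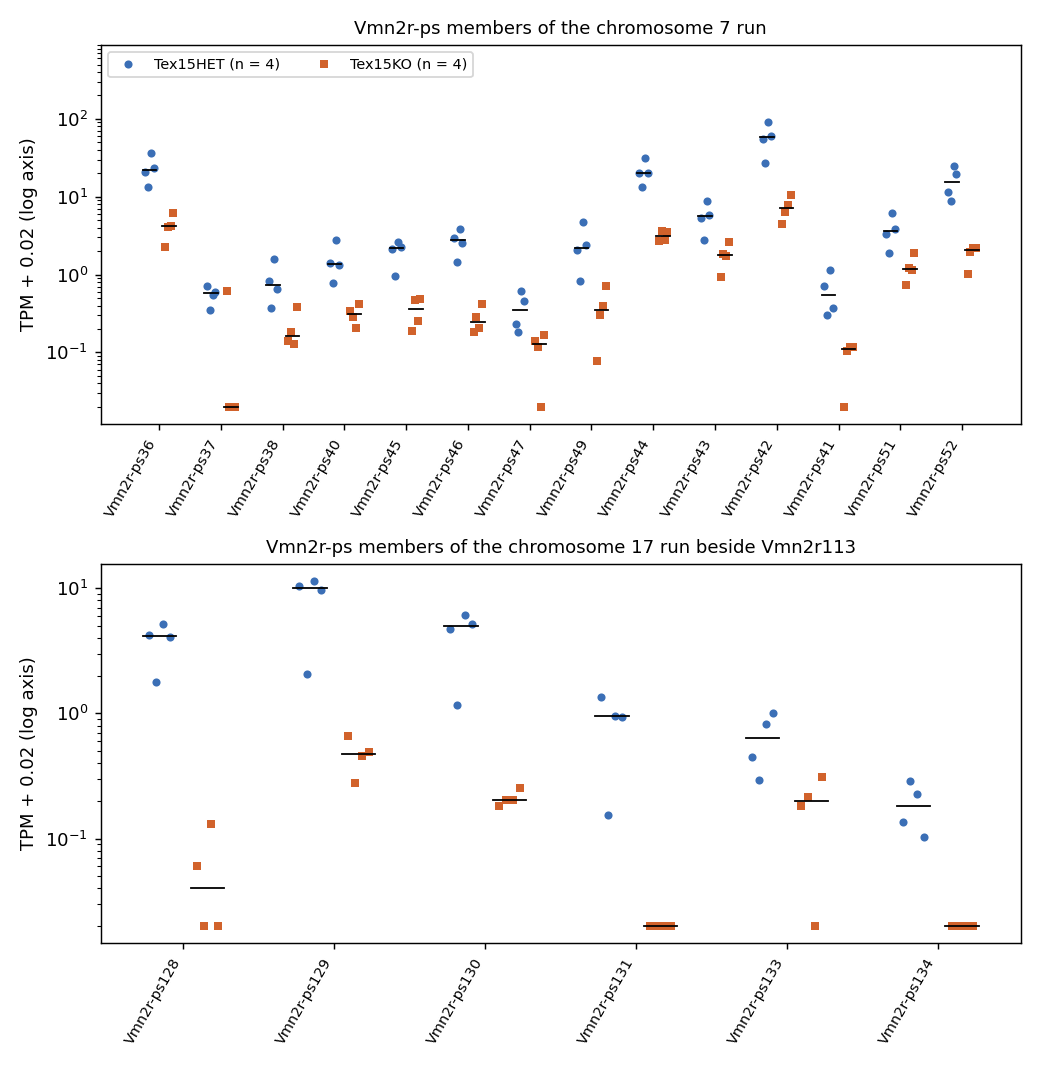
TPM plus 0.02 (log axis) of each V2R pseudogene of the chromosome 7 run (upper panel) and of the chromosome 17 run beside Vmn2r113 (lower panel), with 1 point per library, circles for the 4 HET and squares for the 4 KO libraries, and a bar at the median. The groups are separate for 12 of 14 members in the upper and 5 of 6 in the lower panel, all with KO below HET (0.926% of all tested genes). In the lower panel 2 members are at 0 in all 4 KO libraries.

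A second run of 6 V2R pseudogenes lies around the intact Vmn2r113 at chr17:22916878-23446167. Its summed level was 21.1, 5.61, 24.5 and 20.9 TPM in HET libraries 1 to 4 and 1.01, 0.639, 0.733 and 0.998 TPM in KO libraries 1 to 4. HET library 2 was well below the other controls and still above every KO library. All 3 tested members were called lower (0.374% of all tested genes were), with fold changes of −3.28 to −2.93. Their KO means were 0.0375 to 0.455 TPM, so they passed the filter of 0.5 TPM only through their HET levels. KO levels here lie near or below the added 0.5 TPM, and limma-voom gave −6.94 for Vmn2r-ps128, −4.52 for Vmn2r-ps129 and −4.77 for Vmn2r-ps130. In this run 5 of the 6 members had every KO library below every HET library, against 0.926% of all tested genes. The 5 include Vmn2r-ps131 and Vmn2r-ps134, which were below the filter, while that share covers tested genes alone. Vmn2r113, which encodes the closest intact receptor of most of them, was at 1.5 ± 0.471 TPM in HET and 0.0639 ± 0.0213 TPM in KO libraries (−2.07, adjusted p = 0.022, and 0.00094 to 0.547 over the alternatives).

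Vmn2r-ps128 (ENSMUSG00000090355, chr17:22916878-22932941, minus strand) was at 4.21, 1.76, 5.13 and 4.05 TPM in HET libraries. In KO libraries it was at 0.0402, 0, 0.110 and 0 TPM, which is 1, 0, 3 and 0 reads, so its KO level was at or under 3 reads in each of the 4 libraries, against 65 to 177 reads in HET libraries. Its log2 fold change was −3.18 (SE 0.42, adjusted p = 0.00058). Vmn2r-ps129 (ENSMUSG00000094752, chr17:22992706-23008970, plus strand), with the stop codon shown above, was at 10.3, 2.03, 11.4 and 9.63 TPM in HET and 0.644, 0.260, 0.440 and 0.475 TPM in KO libraries, an 18.4-fold difference of the means. It fell by 3.28 (SE 0.51, adjusted p = 0.0028). Vmn2r-ps130 (ENSMUSG00000095658, chr17:23061166-23082364, plus strand), with its complete reading frame, was at 4.70, 1.14, 6.08 and 5.20 TPM in HET and 0.161, 0.184, 0.183 and 0.231 TPM in KO libraries, a 22.5-fold difference of the means. It fell by 2.93 (SE 0.48, adjusted p = 0.0043), so the member without a stop codon or frame shift was lower in KO libraries along with the disabled ones. With sex in the model and without HET library 1, the adjusted p was 0.153 for Vmn2r-ps129 and 0.103 for Vmn2r-ps130. Vmn2r-ps131 and Vmn2r-ps134, both below the filter, had 2 to 23 and 1 to 4 reads in HET libraries and were listed at 0 in all 4 KO libraries.

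The 300-base RefSeq window around the start of Vmn2r-ps130 (build GRCm38.p6) was 97.3% identical to that of Vmn2r113 and 84.8% to 86.4% identical to those of the 6 other genes from Vmn2r111 to Vmn2r117. Of those 6, 4 were also called lower (0.374% of all tested genes were), with fold changes over the 6 of −3.45 to −1.40. Whether window sequence is related to the change was not tested. RefSeq windows were matched for 2 of the 62 members. The bases of this pair that precede the GENCODE start are shown because they share most of their sequence, with the longest shared run, 36 bases, in capitals (chr17:23061117-23061165 for the pseudogene and chr17:22942934-22942983 for the intact gene, both on the plus strand).
Vmn2r-ps130: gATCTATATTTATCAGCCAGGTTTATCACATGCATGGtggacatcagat
Vmn2r113: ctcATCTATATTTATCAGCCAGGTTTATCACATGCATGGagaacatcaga

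Vmn2r-ps123 moved the other way. It lies in another group of 4 V2R pseudogenes at chr17:18810835-19987798 whose summed level was 1.55, 0.871, 3.97 and 2.55 TPM in HET libraries 1 to 4 and 6.24, 8.32, 11.9 and 12.1 TPM in KO libraries 1 to 4. Vmn2r-ps123 (ENSMUSG00000093426, chr17:19838565-19874206, plus strand) was at 0.583, 0.289, 1.72 and 1.19 TPM in HET and at 5.44, 7.00, 9.998 and 10.2 TPM in KO libraries, or 10 to 38 against 127 to 263 reads. Every KO library was above every HET library (0.473% of all tested genes), the means of 0.945 ± 0.637 and 8.17 ± 2.34 TPM differed 8.65-fold, and the log2 fold change was 2.39 (SE 0.45, adjusted p = 0.0045; 0.338 with sex in the model and without HET library 1). The nearest intact gene, Vmn2r103, 65.2 kb away between start coordinates, was at 0.0464 ± 0.0355 TPM in HET and 0.0110 ± 0.00873 TPM in KO libraries, and the most similar one, Vmn2r95, at 0.354 ± 0.251 and 0.203 ± 0.0886 TPM, both below the filter. In the same group Vmn2r-ps125 was at 1.01 ± 0.597 TPM in HET and 1.36 ± 0.599 TPM in KO libraries (−0.06, adjusted p = 1).

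Vmn2r-ps159 (chr4:156331103-156339499), protein coding by the table and with an open reading frame of 850 codons, had the highest mean level of all 62 members. It was at 68.0, 37.5, 101 and 78.6 TPM in HET and 50.2, 67.8, 58.0 and 73.4 TPM in KO libraries 1 to 4. The groups overlapped, and the log2 fold change was −0.42 (SE 0.37, adjusted p = 1). Vmn2r125, the intact gene 13.1 kb away between start coordinates, was at 26.5 ± 10.5 TPM in HET and 18.4 ± 4.67 TPM in KO libraries (−0.78, adjusted p = 1). Vmn2r-ps87 on chromosome 7, at 5.07 ± 2.11 TPM in HET and 8.35 ± 1.57 TPM in KO libraries, also overlapped between groups (0.62, adjusted p = 1). Vmn2r-ps82, on the same chromosome, was at 6.79, 3.80, 10.6 and 4.57 TPM in HET and at 1.81, 0.692, 1.28 and 1.74 TPM in KO libraries. Its groups did not overlap, and its fold change of −1.97 (SE 0.45) did not pass the threshold with the sex term (adjusted p = 0.108) but did in 11 of 22 alternative settings, among them the test relative to the median gene (adjusted p = 0.0444).

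Of the V2R TPM as the authors' counting placed it, every KO library had a smaller pseudogene share than every HET library. The chromosome 7 run holds most of the pseudogene TPM in HET libraries, and its reads cannot be told apart from those of intact relatives with certainty, so the shares hold only for that placement. Pseudogenes made up 21.4%, 19.6%, 20.5% and 20.6% of the summed TPM of all V2R genes and pseudogenes in HET libraries 1 to 4, and 13.7%, 12.1%, 11.9% and 13.0% in KO libraries 1 to 4. The HET libraries stayed close together although their summed V2R pseudogene level ranged from 124 to 367 TPM, and no KO share reached a HET share. Without Vmn2r-ps159 the shares were 15.5% ± 0.672 (SD, n = 4) and 5.68% ± 0.533. Divided by Gnao1 of the same library, the V2R pseudogene sum was 11.8 ± 1.15 in HET and 5.41 ± 0.391 in KO libraries. In bulk tissue, fewer neurons with transcripts of a gene and fewer transcripts in each neuron cannot be told apart.

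The V1R pseudogene share was 4.74%, 5.89%, 7.00% and 6.76% in HET libraries and 8.77%, 6.47%, 7.38% and 6.38% in KO libraries 1 to 4, with overlapping groups. Fewer V2R pseudogenes reached 0.5 TPM in KO libraries: 22, 17, 26 and 26 of 42 in HET libraries 1 to 4 and 14, 13, 12 and 14 in KO libraries 1 to 4. In the intact V2R family 85.9% ± 5.04 of genes reached that level in HET and 63.3% ± 4.77 in KO libraries. For V1R pseudogenes the numbers were 12, 12, 16 and 16 of 20 in HET and 10, 12, 12 and 11 in KO libraries, which overlap. In the intact V1R family 70.0% ± 9.47 of genes reached that level in HET and 51.0% ± 6.72 in KO libraries, also with overlap.

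**Figure D3:**
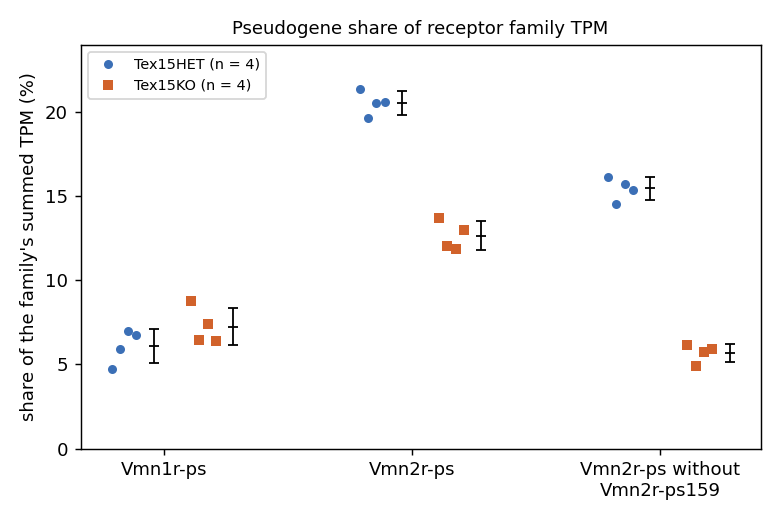
Pseudogene share of the summed TPM of each receptor family (percent, y axis from 0), with 1 point per library and the mean ± SD of 4 libraries beside it. The V2R shares are separate between the groups, from 19.6% to 21.4% in HET and from 11.9% to 13.7% in KO libraries, and without Vmn2r-ps159 from 14.6% to 16.1% and from 4.92% to 6.15%, and the V1R shares overlap.

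Among the V1R pseudogenes the call was Vmn1r-ps14 (ENSMUSG00000093382, chr6:58046448-58049899, minus strand), with the extra base shown above. It was at 2.60, 0.121, 3.85 and 4.32 TPM in HET libraries 1 to 4 and at 14.1, 14.0, 24.9 and 17.04 TPM in KO libraries 1 to 4. All KO libraries were above all HET libraries, the means of 2.72 ± 1.88 and 17.5 ± 5.13 TPM differed 6.43-fold, and the log2 fold change was 2.42 (SE 0.58, adjusted p = 0.038). The call was lost in 8 of 22 alternative settings, which include the test relative to the median gene (adjusted p = 0.062), median-ratio scaling (0.331), limma-voom (0.442), and the fits with sex without HET library 1 (0.231) or KO library 1 (0.225). Its adjacent pseudogene Vmn1r-ps15 was at 1.23 ± 1.11 TPM in HET and 0.282 ± 0.0912 TPM in KO libraries (−0.72, adjusted p = 1). The intact Vmn1r26, 41.5 kb away between start coordinates, was at 4.79 ± 2.06 TPM in HET and 3.18 ± 1.20 TPM in KO libraries (−0.82, adjusted p = 1). Vmn1r31, the most similar intact V1R gene, fell from 2.18 ± 0.960 to 0.0988 ± 0.0996 TPM (−2.12, adjusted p = 0.032, and 0.0018 to 0.817 over the alternatives), so with sex in the model the pseudogene was called higher and its closest relative lower. Every 100-base window of the Vmn1r-ps14 transcripts was found in no other annotated gene's transcript.

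Vmn1r-ps144 on chromosome 17 had the next highest fold change, at 0.824, 1.05, 2.88 and 1.65 TPM in HET and 4.44, 6.72, 4.88 and 8.27 TPM in KO libraries. The groups did not overlap, but its fold change of 1.58 (SE 0.44) missed the threshold (adjusted p = 0.0956) and passed it in 9 of 22 alternative settings. The intact Vmn1r232, 13.0 kb away between start coordinates, was at 6.37 ± 2.17 TPM in HET and 0.634 ± 0.181 TPM in KO libraries and fell by 2.73 (adjusted p = 0.0025, and 1.5e-05 to 0.227 over the alternatives). Vmn1r-ps144 overlaps the annotated gene Gm49761 on the other strand, and whether the authors' counting used strand is not given in the sources used here, so reads of the pair cannot be told apart.

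**Figure D4:**
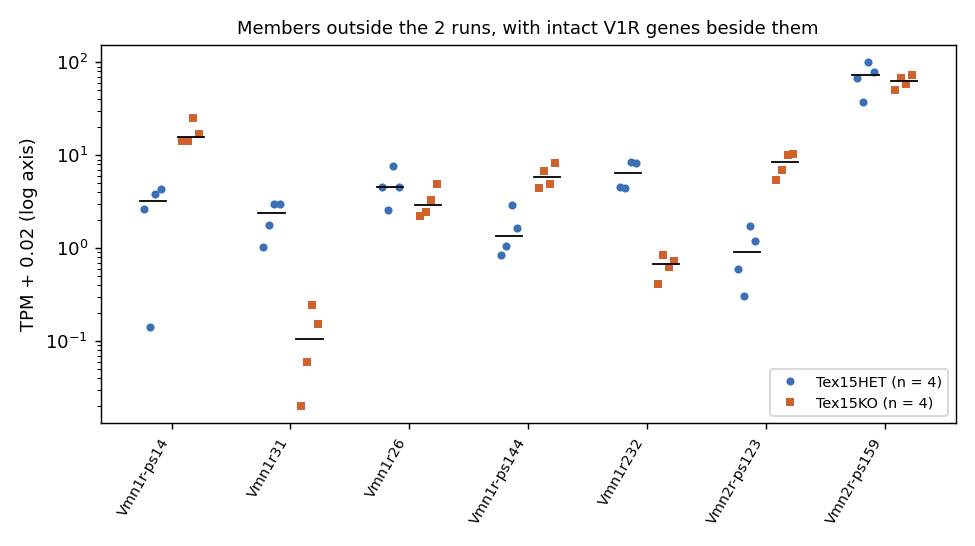
TPM plus 0.02 (log axis) per library for 4 pseudogenes outside the runs with lower members and for the intact V1R genes Vmn1r31, Vmn1r26 and Vmn1r232, with circles for the 4 HET and squares for the 4 KO libraries and a bar at the median. Vmn1r-ps14, Vmn1r-ps144 and Vmn2r-ps123 have all KO libraries above all HET libraries, Vmn1r31 and Vmn1r232 the reverse, and Vmn2r-ps159 overlaps.

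The other V1R pseudogenes had smaller differences, from −1.26 to 0.83, and none passed the threshold. By level, Vmn1r-ps24 was the highest of these at 6.92 ± 3.08 TPM in HET and 5.6 ± 0.68 TPM in KO libraries (−0.32), and it overlapped. Vmn1r-ps140 was at 1.88 ± 0.793 and 0.792 ± 0.305 TPM without overlap (−1.23, adjusted p = 0.987). Vmn1r-ps32 was at 4.93 ± 3.12 and 2.10 ± 0.496 TPM and overlapped by library (−0.97). Vmn1r-ps139 was at 4.78 ± 3.27 and 2.87 ± 1.75 TPM (−0.86). Vmn1r-ps126 was at 1.32 ± 0.723 and 3.83 ± 1.74 TPM (0.83), and Vmn1r-ps47 at 2.76 ± 1.47 and 2.29 ± 1.30 TPM (−0.66), both overlapping. Vmn1r-ps70 and Vmn1r-ps79 on chromosome 7 had no 100-base window that was unique to them, so their reads cannot be assigned with certainty. They were at 1.66 ± 1.12 and 1.69 ± 1.06 TPM in HET libraries and both at 0.315 ± 0.0942 TPM in KO libraries, without overlap (−1.18, adjusted p = 1, and −1.26, adjusted p = 0.987). In the 7100s animals alone, with genotype as the only term, both were called lower (adjusted p = 0.0178 and 0.0198). Vmn1r-ps32, which overlaps the annotated gene Gm20426 on the other strand so that reads of the pair cannot be told apart, was also called lower there (adjusted p = 0.0211). With Vmn1r-ps14 these made 3 V1R pseudogenes lower and 1 higher, against 0.894% of all genes called in either direction. Vmn1r-ps73 in the same group was at 1.73 ± 1.59 and 0.663 ± 0.244 TPM (−0.75). Vmn1r-ps84 was at 4.97 ± 4.36 TPM in HET and 2.60 ± 0.732 TPM in KO libraries, with a KO minus HET difference of −1.10 among females and 1.20 among males, where HET library 1, at 0.489 TPM, was the only male control.

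How far the lower calls can be tied to one copy depends on how different its sequence is from the others. A median of 31.2% of 100-base windows was unique among annotated transcripts for the 20 tested V2R pseudogenes and 29.5% for the 9 called, with 5.06% for Vmn2r-ps44, 8.06% for Vmn2r-ps42 and 29.5% for Vmn2r-ps36. How the authors treated reads that match several genes is not given in the sources used here, so these values cannot be assigned to 1 copy with certainty. Of the 5 tested V2R pseudogenes with at least 90% unique windows, 1, Vmn2r-ps123, was called higher and 0 lower by limma, and limma-voom called 0 of them lower. Vmn2r-ps82, at 99.4% unique, had no overlap between groups and was called lower when tested relative to the median gene, and the 5 members' median fold change was −0.06. For V1R pseudogenes 10 tested members had at least 90% unique windows and a median of −0.49.

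Members and intact relatives were set side by side as a description, since both come from the same libraries and can share reads. Across the 19 V2R pseudogenes whose most similar intact gene was tested, fold changes of the 2 genes had a Pearson correlation of 0.72 and a Spearman correlation of 0.55 across genes, and 18 had the same sign. Vmn2r-ps123, the V2R pseudogene called higher, is not among the 19, because its most similar and its nearest intact gene were below the filter. Some intact genes, such as Vmn2r113, are the relative of more than 1 member. With the nearest intact gene in place of the most similar one the Pearson correlation was 0.31, the Spearman correlation was 0.27 and 18 of 19 had the same sign. Since 18 of 20 tested V2R pseudogenes and 88 of 107 tested intact V2R genes were below the median gene, most pairs would share a sign however they were matched. Across 12 V1R pseudogenes the Pearson correlation with the most similar gene was 0.13 and the Spearman correlation 0.42, with the same sign in 8 of 12. With the nearest gene they were −0.34 and 0.0035.

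**Figure D5:**
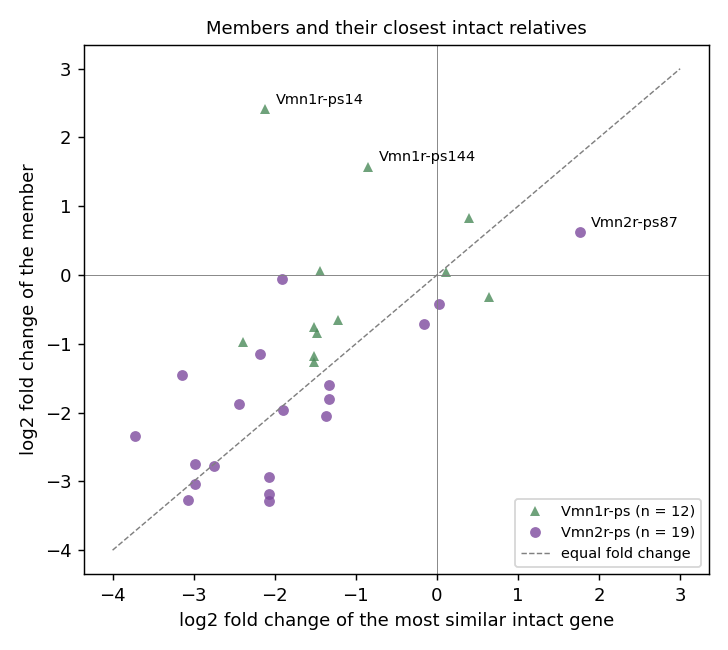
Log2 fold change of each pseudogene (y axis) against that of its most similar intact gene (x axis), both KO against HET and relative to the median tested gene, with triangles for 12 V1R and circles for 19 V2R pseudogenes and a dashed line at equal change. Most V2R points lie in the lower left quadrant, where both are below 0, and Vmn1r-ps14 lies at −2.12 for its relative and 2.42 for itself. Vmn2r-ps123, called higher, is not shown because its relative was below the filter.

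Among the members below the filter, Vmn2r-ps33 on chromosome 6 was listed at 0 in all 4 HET libraries and had 7, 9, 2 and 0 reads in KO libraries 1 to 4. Vmn2r-ps34, 58.8 kb from the intact Vmn2r27 between start coordinates, had 0 to 3 reads in HET and 4 to 15 reads in KO libraries, and all KO values were above all HET values. Vmn2r27, the most similar intact gene of both, had a log2 fold change of 3.54 (adjusted p = 3.7e-05). All V1R and V2R pseudogenes below the filter had mean levels of at most 0.832 TPM in either group.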

How the data were processed

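RNA of the whole organ was extracted with Trizol, poly(A)-selected and made into directional libraries, per the labels' protocols. The submitters' processing notes name Trim Galore 0.6.5, cutadapt 5.1, STAR 2.7.11b and deepTools 3.5.5 and the builds mm10 and GRCm38. The counting program, how it placed reads with several matches, its use of strand and any filter are not given in the sources used here. The authors deposited 1 table in TPM, a unit corrected for gene length and library total, with 0 value columns left unused. Library numbers do not say whether animals were littermates.

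Reads were recovered as whole multiples of the TPM step for GENCODE M21 exon lengths: 97.8% to 98.4% of low values per library were whole within 0.05 reads, as were all 42 V2R and 9 of 20 V1R pseudogenes. For 2 kb of exons, 3 reads correspond to 0.0916 to 0.163 TPM (counting error only).

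Genes whose 8 libraries averaged 0.5 TPM or more entered a limma fit (version 3.58.1, R 4.3.3; lmFit, eBayes with trend) of log2(TPM + 0.5), with genotype and sex as terms and Benjamini-Hochberg adjustment over all 20305, and called at an adjusted p under 0.05. These p-values test the change as deposited; printed fold changes are relative to the median gene unless stated otherwise. The fit was tested on simulated data. Medians, sums, shares and correlations are descriptions without a test. Relatives came from blastn 2.17.0 (e-value at most 1e-10) and reading frames from pairwise alignment with Biopython 1.88. Replicate numbers were checked for pairing: deviations of same-numbered libraries correlated at −0.061 to 0.097, so they were not paired. Named members were all called ones, the 10 highest by mean and the 5 with the largest absolute fold change per family, with their nearest intact genes. Other names were chosen after values were seen. Distances run between start coordinates, the lower coordinate of each gene, so the gap between 2 genes can be shorter. The members and lists were chosen with earlier results of these data known. Alternatives were other pseudocounts, filters, scaling, designs, variance estimates and left-out libraries. Added after the data were seen were limma-voom on recovered reads (rounded where not whole), a test relative to the median gene and leaving out HET library 1, HET library 2 or KO library 1 with genotype alone.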

Additional observations from a re-analysis of the deposited data

Results flagged for a closer look

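In 166 groups of 4 libraries, 11 values lay far from the other 3 by Dixon's test at its 95% critical value of 0.829, and chance alone gives about 5% of groups. They were TPM values of members at low levels: 0.0764 for Vmn1r-ps27 in KO library 2, 0.832 for Vmn1r-ps75 and 0.479 for Vmn2r-ps11 in HET library 3, 1.61 in HET library 4 and 1.75 in KO library 3 for Vmn2r-ps19, 0.594 for Vmn2r-ps37 and 0 for Vmn2r-ps41 in KO library 1, 0.0218 for Vmn2r-ps54 in KO library 1, 0.675 for Vmn2r-ps56 and 0.119 for Vmn2r-ps73 in KO library 2, and 0.212 for Vmn2r-ps139 in HET library 3. Of these, Vmn2r-ps56 was tested and was not called.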

How the results depend on the processing

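No called member changed direction in the alternatives run. Of the members not called, Vmn1r-ps84, at 0.05, was −0.056 with a pseudocount of 1, −0.52 with genotype alone and with the replicate block, −1.27 in the 7100s animals alone, −0.083 with limma-voom and −1.10 to 1.20 with each library left out. With genotype alone it was −1.10 without HET library 1, −0.45 without HET library 2 and −0.53 without KO library 1. Vmn1r-ps103 (0.05, range −0.47 to 0.57) and Vmn2r-ps125 (−0.06, range −0.45 to 0.36) also changed sign. Over all genes, 119 calls became 72 with no filter, 184 in the 7100s animals alone and 83 to 254 with each library left out. Median-ratio scaling called 155, with 28 higher and 127 lower against 43 and 76, and shifted the median gene from 0.19 to −0.01. The V1R pseudogene count of 1 became 0 with a pseudocount of 0.1, with no filter, with limma-voom and when tested relative to the median gene, 2 with genotype alone, also without HET library 2 or KO library 1, 4 in the 7100s animals, and 0 to 2 with each library left out. The V2R pseudogene count of 9 became 14 with median-ratio scaling, in the 7100s animals, and without HET library 2 with genotype alone, and 5 to 13 with each library left out. The V1R median of −0.72 became −0.96 with a pseudocount of 0.1, −0.46 with no filter and −1.10 to −0.34 with each library left out. The V2R median of −1.92 became −2.48 with a pseudocount of 0.1, −1.55 with 1, −0.57 with no filter (which adds members near 0) and −2.66 with limma-voom. Other causes were not tested. Without HET library 1 the calls lost were Vmn1r-ps14 and Vmn2r-ps46, ps123, ps129 and ps130, and without KO library 1 Vmn1r-ps14 and Vmn2r-ps36, ps44, ps46 and ps52. In each fit a lone library stands for its genotype and is assumed to vary like the others. Vmn2r-ps42 and Vmn2r-ps128 were called in all 22 alternatives. With a replicate block on the library numbers, which do not pair the animals, 2 V1R and 10 V2R pseudogenes and 130 genes were called, and 1 of 4 HET libraries correlated best with its own number. The V2R share difference of −7.88 percentage points was −8.23 to −7.59 with each library left out.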
